A study of Mus musculus with 49 samples.

Results

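Nonclassical class I genes of the mouse major histocompatibility complex were followed in the neocortex of rNLS8 mice. The members are the 8 rows of the raw count table with the symbols H2-Q4, H2-Q6, H2-Q7, H2-T10, H2-T22, H2-T23, H2-T24 and H2-M3, out of 45252 rows, and all 8 passed the filter on low counts that left 18220 genes for testing. The rule for them was a list of symbols. Bulk mRNA of 49 brains was sequenced, 1 library per mouse, with 17775738 to 21033608 counts per library. Since the tissue was not sorted, fewer cells of a type and less RNA per cell cannot be told apart.

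All mice were of the strain mixed C57BL/6J x C3H/HeJ. Bigenic (rNLS8) mice were heterozygous for NEFH-tTa, in which a neurofilament promoter drives the tetracycline transactivator in neurons, and for tetO-hTDP43ΔNLS, a human TDP-43 that lacks the nuclear localization sequence. Monogenic controls carried the tetO-hTDP43ΔNLS allele alone. Doxycycline was taken out of the chow of every mouse at 25.5 weeks of age, and the tissue was taken 3 weeks later, at 28.5 weeks. The ctrl-PBS group held 17 monogenic mice (10 females) injected with PBS, and TDP-PBS held 10 bigenic mice (4 females) injected with PBS. TDP-10+12 held 10 bigenic mice (6 females) immunized with peptides 10 and 12 of TDP-43 together, and TDP-15 held 12 bigenic mice (5 females) immunized with peptide 15, which carries the phosphorylated C-terminal site. Injections began at 8 weeks and were given 5 times before and 1 time after the change of chow. A dose held 40 µg in all of peptide coupled to ovalbumin, the weight being that of the conjugate, and was given with adjuvant. The PBS groups received PBS in place of the conjugate. The H2 haplotype of the single mice was not given in the labels.

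Classical class I molecules (H2-K1 and H2-D1 here) are held together with β2-microglobulin, the product of B2m, and show peptides from inside the cell to CD8 T cells. The nonclassical molecules have the same fold but vary less between individuals, are made at lower levels and serve more specialised receptors. Interferons and NF-κB raise both kinds in many cell types, and in the healthy brain parenchyma class I is low. Inbred strains differ in the H2 haplotype they carry, H2b in C57BL/6 and H2k in C3H, and with it in which Q genes they hold and express.

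All 8 genes lie on chromosome 17 of GRCm38.p6. H2-Q4 (chr17:35379617-35384674), H2-Q6 (chr17:35424850-35430055) and H2-Q7 (chr17:35439140-35443773) lie close together on the plus strand, with H2-Q5 between H2-Q4 and H2-Q6. H2-T24 (chr17:36003471-36020800), H2-T23 (chr17:36029977-36032701), H2-T22 (chr17:36037128-36042742) and H2-T10 (chr17:36115871-36121444) follow on the minus strand, and H2-M3 (chr17:37270234-37274485) lies farther on, on the plus strand. RefSeq lists H2-T10 as a transcribed pseudogene and the other 7 as protein-coding. The copies are alike, and of the 100-base windows in the annotated transcripts of H2-Q7 12.0% occur letter for letter in another gene, against 10.8% for H2-Q6, 8.86% for H2-T22, 7.06% for H2-T10, 3.15% for H2-T23, 2.16% for H2-Q4 and 0% for H2-T24 and H2-M3. H2-Q6 shares most with H2-Q7 (8.36% of its windows), and H2-T10 shares its windows with H2-T22 alone. Counts of the 6 members with shared windows are therefore uncertain to the extent that reads were split between copies.

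Upstream sequence was available for 6 of the 8 genes. It is shown because H2-Q6 and H2-Q7 are nearly identical there and because several members hold the same short elements. The 250 bases before the RefSeq start are given 5′ to 3′ on the strand of the gene (GRCm38.p6), and for H2-Q7 the start used by the table lies inside the annotated gene. Capitals mark matches on either strand to GTTTCACTT (letters of an interferon response element), GGNGATTNC (letters of a κB site), TGATGAC (letters of the X2 box bound by the enhanceosome of class I and class II genes) and CCAAT, which overlaps the κB letters in H2-M3.
H2-Q4 (chr17:35379367-35379616, plus strand): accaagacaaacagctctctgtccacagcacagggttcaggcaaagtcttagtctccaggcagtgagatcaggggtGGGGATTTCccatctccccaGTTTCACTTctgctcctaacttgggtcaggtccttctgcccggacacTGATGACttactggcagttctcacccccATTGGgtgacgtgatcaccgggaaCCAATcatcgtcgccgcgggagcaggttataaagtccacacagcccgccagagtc
H2-Q6 (chr17:35424600-35424849, plus strand): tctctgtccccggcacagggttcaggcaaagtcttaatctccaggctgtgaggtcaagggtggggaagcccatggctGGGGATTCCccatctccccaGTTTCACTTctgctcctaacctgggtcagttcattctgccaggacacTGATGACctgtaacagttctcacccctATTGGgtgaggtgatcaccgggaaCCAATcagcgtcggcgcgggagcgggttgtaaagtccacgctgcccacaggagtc
H2-Q7 (chr17:35438905-35439154, plus strand): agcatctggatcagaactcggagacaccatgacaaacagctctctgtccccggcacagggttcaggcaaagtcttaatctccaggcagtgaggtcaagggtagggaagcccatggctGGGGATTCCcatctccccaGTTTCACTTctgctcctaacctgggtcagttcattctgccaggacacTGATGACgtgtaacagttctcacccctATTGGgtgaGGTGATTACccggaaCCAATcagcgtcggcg
H2-T22 (chr17:36042743-36042992, minus strand): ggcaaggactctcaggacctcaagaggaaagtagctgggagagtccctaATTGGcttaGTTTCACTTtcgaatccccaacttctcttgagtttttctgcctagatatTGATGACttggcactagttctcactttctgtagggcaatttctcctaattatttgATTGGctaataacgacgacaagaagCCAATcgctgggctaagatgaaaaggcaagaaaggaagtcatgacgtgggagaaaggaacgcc
H2-T23 (chr17:36032702-36032951, minus strand): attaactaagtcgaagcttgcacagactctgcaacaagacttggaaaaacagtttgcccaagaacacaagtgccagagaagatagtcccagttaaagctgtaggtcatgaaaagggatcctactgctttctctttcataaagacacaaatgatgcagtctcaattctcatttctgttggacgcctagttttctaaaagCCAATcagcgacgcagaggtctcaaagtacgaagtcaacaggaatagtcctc
H2-M3 (chr17:37269984-37270233, plus strand): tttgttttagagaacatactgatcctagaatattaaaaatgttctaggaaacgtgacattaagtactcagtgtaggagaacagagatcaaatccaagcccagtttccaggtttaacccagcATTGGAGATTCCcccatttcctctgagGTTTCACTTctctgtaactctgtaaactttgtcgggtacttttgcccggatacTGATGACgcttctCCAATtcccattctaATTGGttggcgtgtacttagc

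GTTTCACTT was found in 5 of these 6 promoters, all but that of H2-T23, and in 0.352% of the 27025 promoters of this length. It lay 154, 153, 114, 192 and 102 bases before the start of H2-Q4, H2-Q6, H2-Q7, H2-T22 and H2-M3. GGNGATTNC was present in H2-Q4, H2-Q6, H2-Q7 and H2-M3 (2.05% of all promoters), TGATGAC in the same 5 as GTTTCACTT (2.77%) and CCAAT in all 6 (34.5%). Over 210 aligned bases the H2-Q6 and H2-Q7 promoters were 97.6% identical, whereas H2-Q4 was 90.5% identical to H2-Q6. H2-T22 and H2-T23 were 79.2% identical over 183 bases. The letters were chosen after these promoters had been read, and a match is a description and not a binding site.

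To ask which nonclassical genes change when the transgene is on, each bigenic group was compared with ctrl-PBS. In TDP-PBS mice 6 of the 8 genes rose, where 21.9% of all tested genes rose. The largest estimates were those of H2-Q6 (log2 fold change 2.18 ± 0.86 SE) and H2-Q4 (1.74 ± 0.26). The 95% interval of H2-Q6, 0.49 to 3.87, held the value of H2-Q4, and its call was made in 3 of 6 other settings. H2-T24, H2-T23, H2-T22 and H2-T10 rose by 1.25, 1.04, 1.01 and 0.78. H2-Q7 and H2-M3 did not pass the test. In TDP-10+12 mice 5 of 8 rose (20.8% of all tested genes) and in TDP-15 mice all 8 rose (23.6%). The TDP-15 calls of H2-Q6, H2-Q7 and H2-M3 were made in 4, 3 and 5 of the 6 other settings. The median log2 fold change of the 8 genes was 1.15, 0.80 and 1.18 in TDP-PBS, TDP-10+12 and TDP-15, beside a median of 0.00 over all tested genes in each comparison. These 3 comparisons share the 17 control mice. Adjusted p-values here and below are Benjamini-Hochberg values over all 18220 genes, computed with the quasi-likelihood test of edgeR, and levels are CPM, counts scaled to library totals after TMM normalization.

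**Figure D1:**
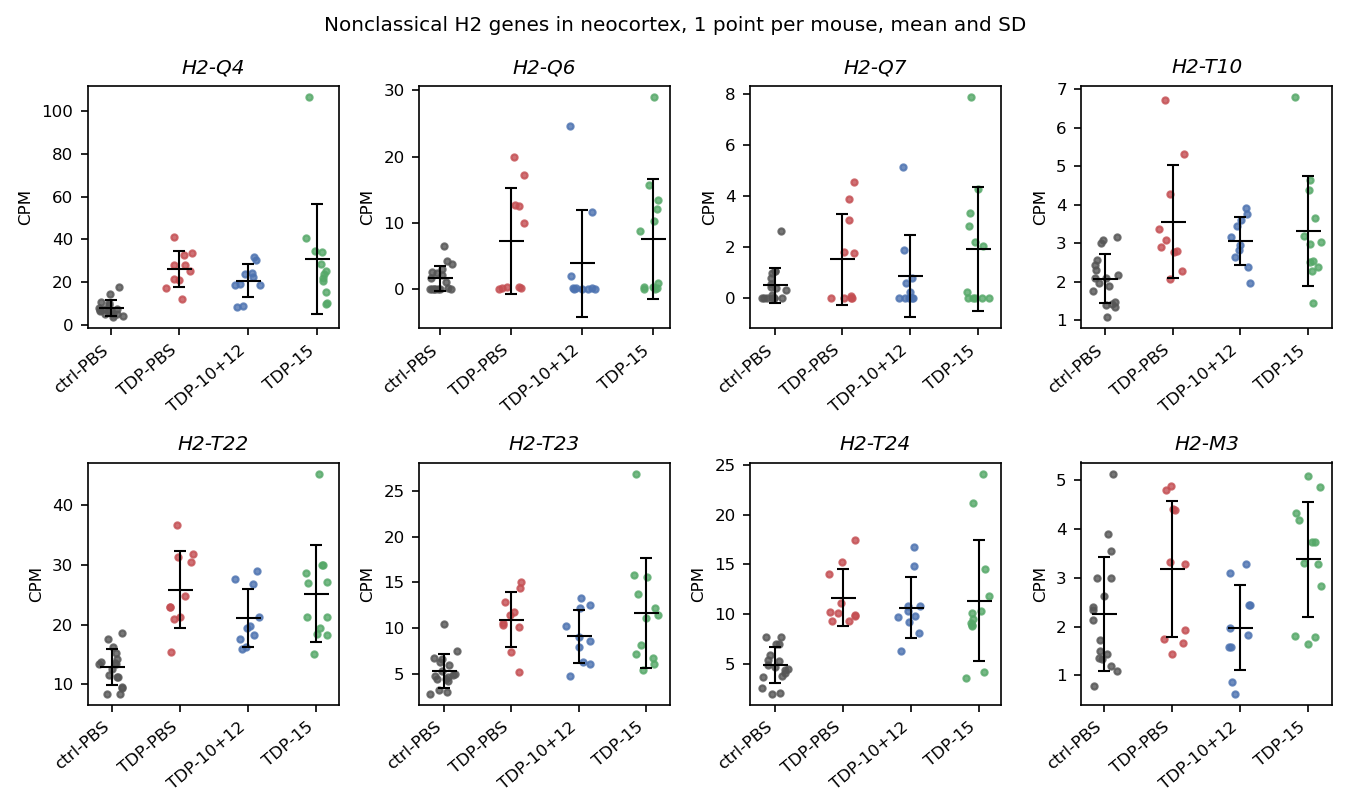
CPM of the 8 genes, 1 panel per gene with its own axis, 1 point per mouse by group, with the mean (bar) and SD (whiskers). H2-T24 is higher in all 10 TDP-PBS mice than in any control, while H2-Q6 and H2-Q7 hold mice at or near 0 in all 4 groups.

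Per kilobase of exon, the 8 genes in ctrl-PBS ran from H2-T22 at 3.76 ± 0.881 CPM per kilobase (SD, n = 17) over H2-Q4 at 3.00 ± 1.41, H2-T24 at 2.24 ± 0.821, H2-T23 at 1.83 ± 0.641, H2-M3 at 1.58 ± 0.813, H2-Q6 at 0.770 ± 0.922 and H2-T10 at 0.608 ± 0.186 down to H2-Q7 at 0.113 ± 0.158. Each gene down to H2-T10 differed from its neighbour in this order by less than the larger of their SDs, and H2-Q7 lay below H2-T10 by more than that. In TDP-PBS the order was led by H2-Q4 at 10.02 ± 3.29 and H2-T22 at 7.57 ± 1.88 and ended with H2-T10 at 1.04 ± 0.429 and H2-Q7 at 0.353 ± 0.417.

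H2-Q4, which encodes Qb-1, a class I molecule of limited tissue range, was among the most abundant members. Its level was 3.52 to 17.5 CPM with a median of 6.84 in ctrl-PBS, 12.2 to 41.1 with a median of 26.5 in TDP-PBS, 8.29 to 31.6 with a median of 20.8 in TDP-10+12, and 9.51 to 107 with a median of 24.4 in TDP-15. Of the bigenic mice, 25 of 32 lay above every control. The log2 fold change against ctrl-PBS was 1.74, 1.40 and 1.98 in TDP-PBS, TDP-10+12 and TDP-15, with adjusted p = 3.11e-07, 2.33e-05 and 4.77e-09 in edgeR's quasi-likelihood test. A single TDP-15 mouse, number 126, carried the 107 CPM (2101 counts), and without it the log2 fold change of TDP-15 was 1.62.

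H2-T23 encodes Qa-1, which presents a leader peptide of other class I molecules to the inhibitory receptor CD94/NKG2A of natural killer and CD8 T cells. It ranged over 2.84 to 10.39 CPM (median 4.84) in ctrl-PBS and over 5.19 to 15.1 (median 11.01) in TDP-PBS. In TDP-10+12 it ranged over 4.77 to 13.3 (median 8.80) and in TDP-15 over 5.45 to 26.9 (median 11.3). The groups overlapped, and 16 of the 32 bigenic mice lay above all controls. Rises of 1.04 ± 0.20, 0.78 ± 0.20 and 1.14 ± 0.19 (log2, SE) had adjusted p = 2.45e-05, 0.00144 and 1.72e-06 by edgeR's quasi-likelihood test. The partner chains of its receptor, Klrd1 (CD94) and Klrc1 (NKG2A), had means of at most 0.0414 and 0.0394 CPM in any group, and both had mice at 0 in every group.

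H2-T22 encodes a class I molecule that binds no peptide and is seen by some γδ T cell receptors, as is the product of H2-T10 in strains where that gene is intact. The CPM of H2-T22 were 8.45 to 18.6 with a median of 13.3 in ctrl-PBS, 15.5 to 36.6 with a median of 23.9 in TDP-PBS, 15.9 to 29.0 with a median of 19.6 in TDP-10+12, and 15.1 to 45.3 with a median of 24.1 in TDP-15. Above the highest control lay 24 of 32 bigenic mice, 9 of them among the 10 TDP-PBS mice. H2-T22 rose by 1.01 ± 0.14, 0.72 ± 0.14 and 0.97 ± 0.13 (log2, SE), with adjusted p = 2.99e-08, 3.03e-05 and 2.22e-08 by edgeR's quasi-likelihood test. H2-T10 was lower, at 2.08 ± 0.63, 3.57 ± 1.47, 3.07 ± 0.63 and 3.32 ± 1.42 CPM (mean ± SD) in ctrl-PBS, TDP-PBS, TDP-10+12 and TDP-15, and only 13 of 32 bigenic mice exceeded all controls. Its rises were the smallest of those called in TDP-PBS and TDP-10+12, with adjusted p = 0.000488, 0.0124 and 0.00129 for TDP-PBS, TDP-10+12 and TDP-15 in edgeR's quasi-likelihood test.

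H2-T24, a gene of little known function, was the only member for which a whole bigenic group stood apart from the controls. Its level ran from 2.04 to 7.75 CPM in ctrl-PBS (median 4.66) and from 9.29 to 17.4 in TDP-PBS (median 10.18). The level in TDP-10+12 was 6.28 to 16.7 (median 10.08) and in TDP-15 it was 3.58 to 24.1 (median 9.81). All 10 TDP-PBS mice, 9 of 10 TDP-10+12 mice and 10 of 12 TDP-15 mice lay above every control. No member had all 32 bigenic mice above all controls, which 1.16% of tested genes had. The share of tested genes with all TDP-PBS mice above every control was not counted, so H2-T24 stands out among the 8 members only. The log2 rises were 1.25 ± 0.21, 1.13 ± 0.21 and 1.21 ± 0.20 (SE), and edgeR's quasi-likelihood test gave adjusted p = 1.67e-06, 1.41e-05 and 1.11e-06.

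H2-M3 presents N-formylated peptides of bacterial and mitochondrial origin. It was the member with the least difference between genotypes, at 0.777 to 5.14 CPM (median 2.14) in ctrl-PBS, 1.44 to 4.89 (median 3.31) in TDP-PBS, 0.625 to 3.29 (median 1.90) in TDP-10+12 and 1.64 to 5.09 (median 3.52) in TDP-15. None of the 32 bigenic mice lay above the highest control. It rose in TDP-15 (0.58 ± 0.24, adjusted p = 0.0393 by edgeR's quasi-likelihood test), whereas the values were 0.49 ± 0.25 in TDP-PBS and -0.20 ± 0.26 in TDP-10+12, with adjusted p = 0.107 and 0.579 in the same test. The call in TDP-15 was lost without mouse 126 (0.52, adjusted p = 0.0750 by edgeR) and without the filter on low counts (adjusted p = 0.0632).

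H2-Q6 and H2-Q7 encode Qa-2 antigens, which are anchored to the membrane by a lipid and circulate in soluble form. H2-Q6 reached 6.45 CPM in ctrl-PBS, 19.9 in TDP-PBS, 24.6 in TDP-10+12 and 29.0 in TDP-15, and its lowest value was 0 in every group. Medians were 0.991, 5.08, 0.199 and 4.78 CPM in the same order, and 13 of 32 bigenic mice lay above every control. H2-Q6 rose in TDP-PBS (2.18 ± 0.86, adjusted p = 0.0354) and TDP-15 (2.23 ± 0.83, adjusted p = 0.0236) by edgeR's quasi-likelihood test, while TDP-10+12 had 1.27 ± 0.89 and adjusted p = 0.264. H2-Q7 lay at 0 to 2.60, 0 to 4.54, 0 to 5.14 and 0 to 7.89 CPM in ctrl-PBS, TDP-PBS, TDP-10+12 and TDP-15, and rose in TDP-15 alone (1.97 ± 0.79, adjusted p = 0.0351, edgeR), with 1.63 ± 0.83 in TDP-PBS and 0.82 ± 0.88 in TDP-10+12. None of the H2-Q6 and H2-Q7 calls was made by DESeq2, with adjusted p = 0.165 and 0.124 for H2-Q6 in TDP-PBS and TDP-15 and 0.215 for H2-Q7 in TDP-15, nor by limma-voom with sample weights (0.236, 0.265 and 0.615). Without TDP-10+12 mouse 47 the H2-Q6 value of that group was 0.00 and that of H2-Q7 was -0.32.

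**Figure D2:**
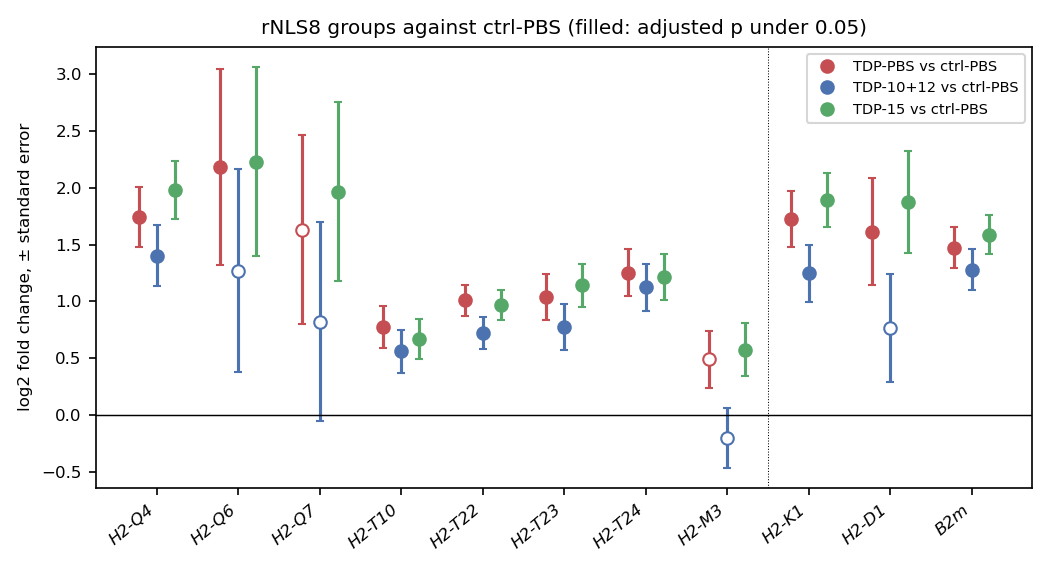
log2 fold change of each gene in the 3 bigenic groups against ctrl-PBS, with standard errors as whiskers, for the 8 members and, right of the dotted line, H2-K1, H2-D1 and B2m. Filled points passed an adjusted p of 0.05 and open points did not, and the whiskers of H2-Q6 (0.83 to 0.89) are longer than those of H2-T22 (0.13 to 0.14).

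Between mice the members did not vary in the same way. The SD of log2(CPM + 0.5) within groups was 2.02 for H2-Q6 and 1.25 for H2-Q7, and it was 0.67 for H2-Q4, 0.56 for H2-M3, 0.53 for H2-T24, 0.50 for H2-T23, 0.40 for H2-T10 and 0.36 for H2-T22, beside a median of 0.20 over all tested genes. To look for on/off patterns, the mice were sorted by log2(CPM + 0.5) and the largest gap between neighbours was taken, with at least 3 mice on each side and a gap of at least 1. H2-Q6 had such a gap among the 17 controls, where 0.406% of tested genes had one, and among the 32 bigenic mice (0.467%). Among controls 8 mice lay at 0.103 CPM or less and 9 at 0.991 or more, and among bigenic mice 19 lay at 1.91 or less and 13 at 8.71 or more. The other 7 genes had no such gap in either set of mice. For H2-Q7 the largest gap was 0.43 in controls and 0.85 in bigenic mice, and for the 4 T genes, H2-Q4 and H2-M3 it was at most 0.44.

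Because H2-Q6 also rose with genotype, its counts were next set against those of B2m in the same mouse, a scale chosen after these values had been seen. On this scale 26 of 49 mice lay at 2.55 or fewer H2-Q6 counts per 1000 B2m counts (with 0.5 added to each H2-Q6 count) and 23 at 14.7 or more, a gap of 2.53 on the log2 scale. The low side held 8 of 17 ctrl-PBS, 5 of 10 TDP-PBS, 7 of 10 TDP-10+12 and 6 of 12 TDP-15 mice, 12 of 25 females and 14 of 24 males. The share of low mice did not differ detectably between the 4 groups (permutation test, 100000 resamples, p = 0.729). On CPM with 0.5 added no member had the gap over all 49 mice, so the test could not be run there as planned. With 0.1 added H2-Q6 had the gap. Its low side then held 8 ctrl-PBS, 5 TDP-PBS, 7 TDP-10+12 and 5 TDP-15 mice (permutation test, 100000 resamples, p = 0.634).

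In raw counts the sides were apart within each group, though over all 49 mice the highest low count (17) lay next to the lowest high count (18). The low ctrl-PBS mice had 0 to 2 H2-Q6 counts and the high ones 18 to 124. In TDP-PBS the low mice had at most 5 counts and the high mice 208 to 381. TDP-10+12 mice had at most 4 counts or 38, 250 and 502 counts, and TDP-15 mice at most 17 or 163 to 581. The 17 counts belonged to mouse 126, the mouse with the most B2m counts (10658), and the 38 counts to mouse 242, which had the fewest B2m counts of the bigenic mice (1311) and lay below the gap on CPM. The H2-Q6 count was 0 in 14 of the 26 low mice. For a library at 0, counting error alone allows up to 3 counts.

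H2-Q7 followed the same mice. Its largest gap per 1000 B2m counts was 0.96, with 27 mice below and 22 above, and 48 of 49 mice lay on the same side as for H2-Q6. The exception was ctrl-PBS mouse 232, with 81 H2-Q6 counts and 6 H2-Q7 counts. Among low mice H2-Q7 was at 0 in 21 of 26, and TDP-10+12 mouse 130 had 11 H2-Q7 counts and no H2-Q6 count. H2-Q8 and H2-Q9, the other genes of the Qa-2 group, had means of at most 0.177 and 0.0758 CPM in any group and were not tested.

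**Figure D3:**
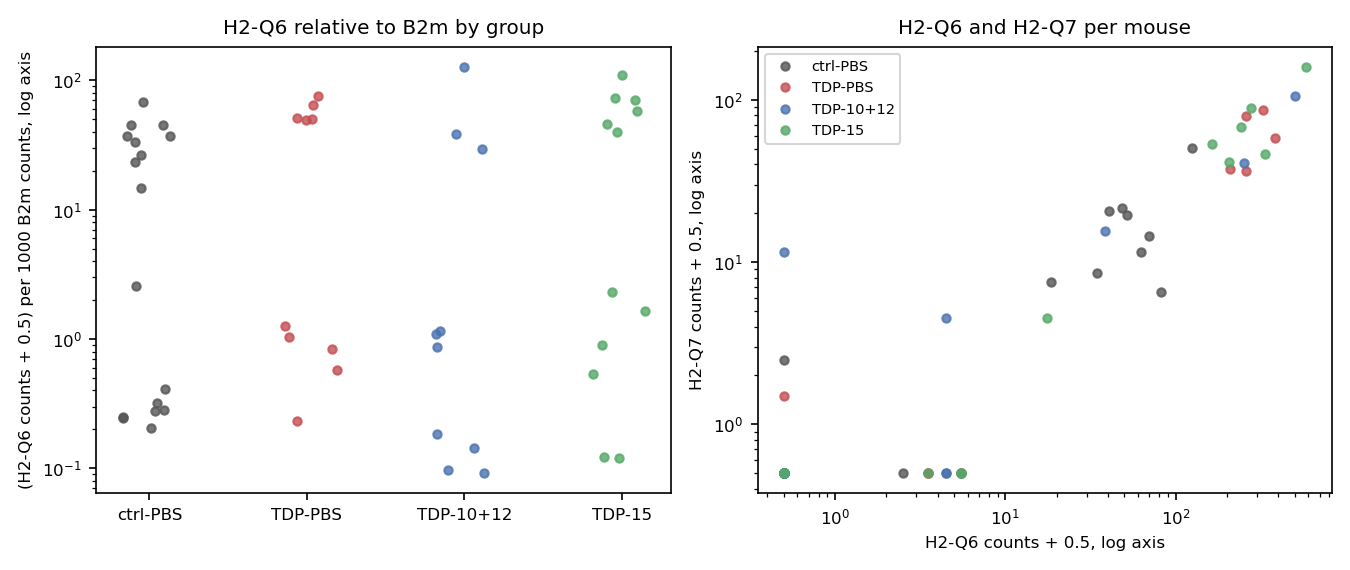
Left, H2-Q6 counts plus 0.5 per 1000 B2m counts by group on a log axis, and right, H2-Q7 against H2-Q6 counts plus 0.5 on log axes, 1 point per mouse. A gap without mice from 2.55 to 14.7 separates 26 mice from 23, and both sides hold mice of all 4 groups.

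Other genes were then ranked by whether they ordered the mice as H2-Q6 did. For each of the 154 pairs of a low and a high mouse of the same group, it was counted which had the higher CPM, and H2-Q6 itself has a share of 1 by construction. H2-Q7 and H2-D1, a classical class I gene at -0.162 megabases from the H2-Q6 start, were higher in the high mouse in all 154 pairs. A share of at least 0.95 was also reached by Atp6v1g2 (a subunit of the proton pump, 0.987), H2-Q2 (0.958) and H2-D4 (0.994). With H2-Q6 itself counted, this makes 6 of 18220 tested genes, all listed on chromosome 17, where 925 tested genes lie. H2-D1 had a gap of 1.10 of its own among controls, with 8 mice at 16.1 CPM or less and 9 at 35.1 or more.

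A few genes ran the other way. A930015D03Rik, 0.570 megabases after H2-Q6, and Mmut, a mitochondrial mutase 5.51 megabases after it, were higher in the high mouse in 0.00649 of pairs, and H2-T24 in 0.0844. H2-M3 was at 0.838, H2-K1 at 0.825, H2-T22 at 0.766 and H2-T23 at 0.747, while H2-T10 (0.481), B2m (0.435) and H2-Q4 (0.416) lay near an even split. H2-Q4 starts at -0.0452 megabases from H2-Q6 and H2-Q7 at 0.0143 megabases. H2-Q5, which starts between H2-Q4 and H2-Q6 at -0.0308 megabases, had a share of 0.942, and Gm8750, between H2-Q5 and H2-Q6, had 0.318. The shares describe these mice and share 1 set of sides, so they were given no test.

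**Figure D4:**
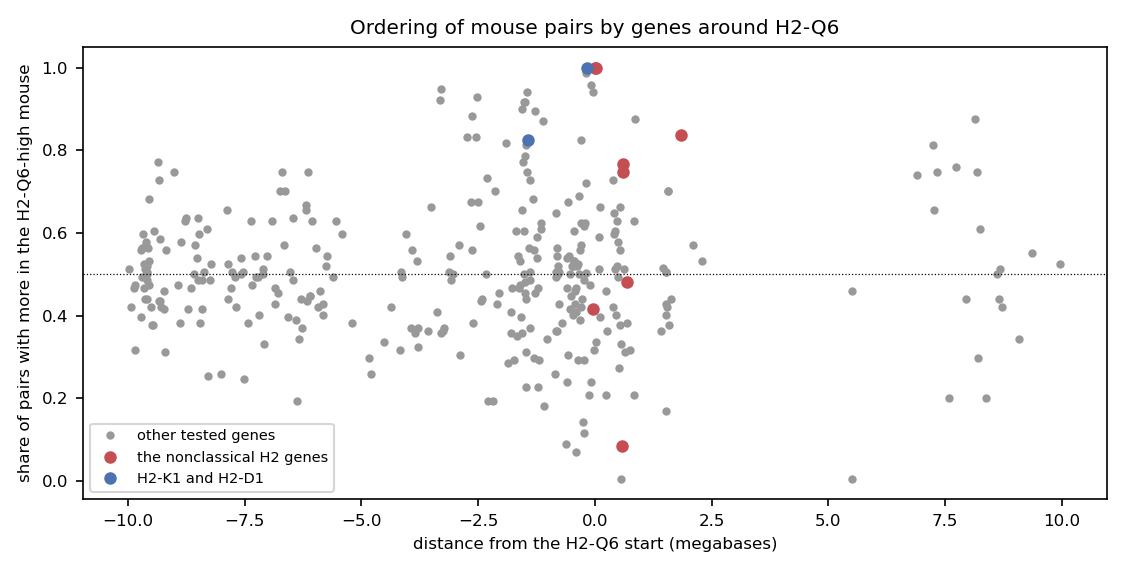
Share of the 154 mouse pairs in which the mouse with high H2-Q6 had the higher CPM, for tested genes within 10 megabases of the H2-Q6 start (horizontal axis, megabases), and the dotted line marks an even split. H2-Q7 and H2-D1 lie at 1, H2-T24 at 0.0844, and H2-Q4 at 0.416 beside them.

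With the group means taken out, members also varied together in part. Of the 28 pairs of members, 17 had a correlation with an adjusted p under 0.05 in a permutation test of Pearson's r, all of them positive, and 11 pairs did so when sex was taken out as well. Pairs with H2-Q6 or H2-Q7 were taken over the 23 mice on the high side of H2-Q6, the others over all 49. The share of pairs passing among all tested genes was not counted, so these counts describe the members alone. H2-T22 and H2-T23 were closest over the 49 mice, with r = 0.85 and rho = 0.86 (permutation p = 1e-05 for each, the smallest that 100000 resamples give, adjusted p = 0.00014) and r = 0.80 without the 2 mice farthest from the median of H2-T22. H2-Q4 and H2-T23 had r = 0.71 and rho = 0.68 (permutation p = 1e-05 each, adjusted p = 0.00014), and r = 0.62 without 2 mice. H2-Q6 and H2-Q7 were compared within the 23 high mice only, where r was 0.73 (permutation p = 9e-05, adjusted p = 0.00042) and rho was 0.52 (p = 0.0128, adjusted p = 0.0255), with r = 0.61 without 2 mice. H2-T24 and H2-T22 showed no detectable relation over the pooled mice (r = 0.11, rho = 0.00, permutation p = 0.435 and 0.992, adjusted p = 0.487 and 0.992, r = -0.04 without 2 mice). The H2-Q6 sides were pooled in the values over 49 mice. H2-T22 and H2-T23 were higher in the high mouse in 0.766 and 0.747 of pairs, and H2-T24 in 0.0844. Relations of these genes within the sides were not tested.

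The genes most like a member over the 49 mice, by Pearson's r of the same residuals and with no test, differed in kind. They are given for members other than H2-Q6 and H2-Q7. H2-Q4 was most like Zbp1 (0.84), a sensor of Z-form nucleic acid, Irgm1 (0.83), an interferon-induced GTPase, and Nlrc5 (0.83), the transactivator of class I genes. For H2-T23 they were H2-K1 (0.86), H2-T22 (0.85) and Oas3 (0.84), for H2-T22 they were H2-T23 (0.85), H2-K1 (0.80) and Oasl2 (0.77), and for H2-T10 they were Isg20 (0.65), Ddx58 (0.64) and Ifi204 (0.64), all but the H2 genes being interferon-stimulated. H2-T24 was most like 3 genes of chromosome 17, namely A930015D03Rik (0.80), LOC100862431 (0.80) and LOC108167390 (0.76), and least like Zfp811 (-0.69), also of chromosome 17. H2-M3 was most like H2-D1 (0.67). H2-D1 was higher in the high mouse in all 154 pairs and H2-M3 in 0.838 of them, and the part of the sides in this value was not tested. The H2-Q6 sides were not taken out of any of these values, and H2-T24 and A930015D03Rik both ran against them (shares of 0.0844 and 0.00649).

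The relatives of these genes were set beside them. H2-K1 rose from 16.4 ± 6.76 CPM in ctrl-PBS to 54.3 ± 17.6 in TDP-PBS (log2 fold change 1.72), and B2m from 84.8 ± 19.7 to 235 ± 59.2 (1.47), while H2-D1 was 39.2 ± 31.1 and 120 ± 86.6 CPM (1.61). Adjusted p were 6.64e-08, 1.51e-09 and 0.00392 by edgeR's quasi-likelihood test. The list of classical class I genes, which also held their partner B2m, had 4 genes in the table, H2-K1, H2-D1, H2-K2 and B2m. All 4 rose in TDP-PBS and TDP-15, with medians of 1.54 and 1.73. In TDP-10+12 3 of 4 rose, the value of H2-D1 there being 0.77 (adjusted p = 0.198 by edgeR's quasi-likelihood test). Of 30 other nonclassical H2 symbols, 20 were in the table and 6 passed the filter. Of these H2-Q1 rose in all 3 bigenic groups (0.99, 0.83 and 1.22), and H2-T-ps, a pseudogene, fell in TDP-PBS (-0.69) and TDP-15 (-0.64). H2-M5 had 8.49 ± 2.04 CPM in ctrl-PBS and 8.76 ± 1.97 in TDP-PBS and did not pass the test. Within the class I loading machinery 9 of 14 genes rose and 1, Pdia3, fell in TDP-PBS, from Psmb8 (1.81), an immunoproteasome subunit, and Tap1 (1.63), a peptide transporter, down to Pdia3 (-0.18), and the median was 0.46. Class II genes had 5 of 10 tested members higher in TDP-PBS, with a median of 0.63 and Cd74, the invariant chain, at 1.38. Of 13 class I-like genes outside the H2 region, 7 were tested and 3 rose, from Mr1 (0.25) to Mill2 (0.76).

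Regulators and receptors were counted in the same way. All 14 interferon-stimulated genes of the list rose in all 3 bigenic groups, with a median of 2.87 in TDP-PBS, from Gbp2 (1.40) to Mx1 (3.53). Of 22 interferon and NF-κB regulators 16 rose and 1 fell in TDP-PBS, with a median of 0.36, Irf7, an interferon-induced transcription factor, at 3.01 and Nfyb, a subunit of the CCAAT-binding factor, at -0.59. Of 15 genes listed as possible receptors of nonclassical class I, 11 were in the table and 3 passed the filter. Klrd1 and Klrc1 did not pass it. Of the 3, Lilrb4a and Pirb, inhibitory receptors of myeloid cells, rose in TDP-PBS by 1.43 and 1.08. Lilr4b had 0.63 (adjusted p = 0.0581 by edgeR's quasi-likelihood test) there and rose in TDP-10+12 and TDP-15. Whether the products of these 3 genes bind those of the members was not tested.

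Cell type markers moved with genotype too. The summed CPM of 15 microglia markers lay between 328 and 398 in ctrl-PBS, 459 and 691 in TDP-PBS, 333 and 632 in TDP-10+12 and 361 and 937 in TDP-15, and 13 of the 15 rose in each bigenic group. P2ry12, a receptor of resting microglia, fell in TDP-10+12 (-0.18) and TDP-15 (-0.15) and had -0.09 in TDP-PBS, where it did not pass the test. The summed 12 markers of neocortical neurons were 6357 to 8282 in ctrl-PBS and 4820 to 6108 in TDP-PBS. Of these 6 were lower and 1 higher in TDP-PBS, and 3 of 9 endothelial markers rose there. Of all 18220 tested genes, 3996, 3798 and 4309 rose in TDP-PBS, TDP-10+12 and TDP-15, and 3932, 3644 and 4230 fell. The counts of the lists are to be read beside these. Of 20 T and NK cell markers 18 were in the table and 6 were tested, of which 1 rose and 2 fell in TDP-PBS, and their sums were 5.53 to 62.7 CPM in ctrl-PBS and 10.0 to 19.1 in TDP-PBS. The largest change called was that of Eomes, a transcription factor (-3.23), at 2.87 ± 6.67 CPM in ctrl-PBS (0 to 24.5) and 0.302 ± 0.278 in TDP-PBS. Eomes and Cd4, which reached 35.3 CPM in ctrl-PBS, weigh heavily in the sums, so these do not measure T or NK cell numbers. The markers did not move as 1: Cd3e, a chain of the T cell receptor complex, and Cd8a, of cytotoxic T cells, had means of at most 0.0846 and 0.114 CPM in any group. Lck, a kinase of T cell signalling, rose in all 3 bigenic groups (0.63, 0.70 and 0.60), from a mean of 1.70 CPM in ctrl-PBS to 2.63 in TDP-PBS. Cd4, the coreceptor of helper T cells, fell in all 3 (-1.19, -1.34 and -1.60), from 19.7 CPM in ctrl-PBS to 8.63 in TDP-PBS. Markers of neighbouring tissue summed to 339 to 1023 CPM in ctrl-PBS and 422 to 2136 in TDP-PBS, where 1 of 13 rose and 2 fell. The sums were 401 to 2371 in TDP-10+12, where 5 rose, and 379 to 2098 in TDP-15, where 3 rose and 2 fell. Ttr, a choroid plexus gene, rose in TDP-10+12 (2.71) and TDP-15 (2.05). Its spread between mice was wide, at 283 ± 553 and 178 ± 414 CPM (mean ± SD) in these groups. It had 169 ± 374 CPM in TDP-PBS, where it was not called, and 43.1 ± 82.6 in ctrl-PBS. The part of these cells and tissues in the rise of the nonclassical genes was not tested.

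To ask whether immunization changed the nonclassical genes, the bigenic groups were compared with each other. None of the 8 genes passed the test in TDP-10+12 against TDP-PBS, TDP-15 against TDP-PBS or TDP-10+12 against TDP-15, and neither did any other gene, which makes 0% of 18220 in each comparison (953, 552 and 1244 genes had an unadjusted p under 0.05 in edgeR's quasi-likelihood test, and DESeq2 called 0 in each). All 8 log2 fold changes of TDP-10+12 against TDP-PBS were below 0, from -0.13 ± 0.23 for H2-T24 to -0.91 ± 0.94 for H2-Q6 (adjusted p at least 0.926), and the SE of H2-Q6 and H2-Q7 (0.91) leave room for changes of several fold. H2-M3 had the lowest unadjusted p, with -0.69 ± 0.29 (p = 0.0192) against TDP-PBS and -0.78 ± 0.27 (p = 0.0067, adjusted p = 0.549) against TDP-15. The low side of H2-Q6 held 7 of 10 TDP-10+12, 5 of 10 TDP-PBS and 6 of 12 TDP-15 mice. H2-M3, H2-T22 and H2-T23 were higher in the high mouse in 0.838, 0.766 and 0.747 of pairs, and H2-T24 in 0.0844. The part of the sides in these values was not tested. Several members varied together, so the 8 signs are not separate results. The values of TDP-15 against TDP-PBS were small, from -0.10 ± 0.20 for H2-T10 to 0.33 ± 0.83 for H2-Q7.

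The effect of genotype was also compared between the sexes in the 27 PBS-treated mice. Of 17363 genes 0 had an interaction of sex and genotype after adjustment by edgeR's quasi-likelihood test, and 1097 had an unadjusted p under 0.05. No other tool was run for it. Among the members H2-Q4 had the lowest unadjusted p (0.0389, adjusted p = 0.778), with a male minus female difference in its log2 fold change of -0.77. The other 7 members had unadjusted p of at least 0.296.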

How the data were processed

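Neocortical mRNA of 49 mice was sequenced as 100 bp read pairs on a DNBSEQ platform. The authors aligned the reads to GRCm38.p6 and deposited whole-number counts per gene and mouse. HISAT, HISAT2, Bowtie2, Bowtie and RSEM are named in the submitters' processing notes without roles or versions. RSEM estimates counts for reads shared by similar genes, so the deposited counts may be rounded estimates. Annotation, strand setting and the treatment of C3H alleles are not given in the sources used here. Alignment to the C57BL/6J reference can lower counts where alleles differ in sequence.

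Groups, sexes and animal numbers were taken from the labels. Nothing was left out. Genes with too few counts were removed by filterByExpr with the groups given (minimum 10 counts, 15 over all mice). Libraries were normalized by TMM, and 1 model without covariates covered the 4 groups (edgeR 4.0.16, R 4.3.3, glmQLFit and glmQLFTest, two-sided, adjusted p under 0.05). Standard errors were derived from the F statistic. On simulated counts for TDP-PBS against ctrl-PBS the fit was tested over 18050 genes and recovered 96.4% of 197 changed genes with 14 false calls. CPM are on the TMM scale. Total counts were 17775738 to 21033608 per mouse. Floors of 3 counts cover counting error only.

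Alternatives were DESeq2 1.42.0, DESeq2 size factors, no filter, sex as a covariate, only the groups compared, limma-voom (limma 3.58.1), other pseudocounts (0.1 for 0.5), another gap (0.75) and, chosen after seeing the data, fits without mouse 126 or 47 and H2-Q6 counts per 1000 B2m counts. Permutation tests used 100000 resamples. Exon length per gene came from GENCODE M21 and names, positions and promoters from RefSeq GRCm38.p6, and positions on alternate scaffolds (H2-D4) were not used. The text names the 8 members, H2-K1, H2-D1 and B2m, and at most 4 genes of a list (the largest and smallest called changes). For each member the 3 most and the 1 least like it were also found. Not all of these are named, and none are given by this measure for H2-Q6 and H2-Q7. Genes of the on/off ranking, single receptors, single cell type and tissue markers, H2-Q5, H2-Q8, H2-Q9 and H2-M5 were named after their values were seen. Members and lists were chosen with earlier results of these data known.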

Additional observations from a re-analysis of the deposited data

Results flagged for a closer look

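Of 16 groups of 10 mice, 1 per member in TDP-PBS and TDP-10+12, 2 held a mouse set apart by Dixon's criterion, which chance does in about 1 of 20 groups of normally spread values. Both were TDP-10+12 mouse 47, the highest of its group for H2-Q6 with 24.6 CPM and for H2-Q7 with 5.14 CPM. The 2 genes share sequence windows and were low in nearly the same mice, so they are not separate cases. With 7 of the 10 mice on the low side of H2-Q6, the values are not spread normally, and that chance rate does not apply to them. The cause was not tested.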

How the results depend on the processing

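H2-Q4, H2-T10, H2-T22, H2-T23 and H2-T24 kept their direction and their call against ctrl-PBS in all 3 bigenic groups under all 6 other settings of tool, scaling, filter and covariates. In other results the sign turned while neither value passed the test. With limma-voom H2-Q6 in TDP-10+12 against ctrl-PBS was -0.75, H2-Q7 -0.30, H2-Q6 in TDP-15 against TDP-PBS -0.22, H2-Q7 -0.26, and H2-T24 in TDP-10+12 against TDP-15 0.015. With sex as a covariate H2-Q6 in TDP-15 against TDP-PBS was -0.11. Without mouse 47 H2-Q7 in TDP-10+12 against ctrl-PBS was -0.32. Without mouse 126 H2-Q4 and H2-T23 in TDP-15 against TDP-PBS were -0.12 and -0.080. In TDP-10+12 against TDP-15 H2-T10 lay between -0.15 (without mouse 47) and 0.032 (without mouse 126), and H2-T24 between -0.065 and 0.066. H2-Q6 in TDP-PBS lost its call without the filter on low counts (adjusted p = 0.0503), as did H2-Q7 in TDP-15 (adjusted p = 0.0525), both by edgeR. Genes called in TDP-10+12 against TDP-PBS became 1 without the filter and 2 with limma-voom, and in TDP-10+12 against TDP-15 1 without the filter and 2 with those groups alone. Members with an on/off gap became 2 with a pseudocount of 0.1 in ctrl-PBS and in bigenic mice, where a gap of 0.75 also gave 2 (H2-Q6 and H2-Q7). Over all mice they became 1 with a pseudocount of 0.1, with a gap of 0.75 and per 1000 B2m counts. With sex means removed, correlations of H2-Q6 and H2-T24 (-0.025), H2-Q7 and H2-T24 (-0.090) and H2-T10 and H2-M3 (-0.025) turned sign, and 6 lost their call. The causes were not tested. Low counts limit H2-Q7 most, and the H2 haplotypes of the mice were not analysed here.

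No paired analysis was possible because each mouse is in 1 group and the animal numbers are not shared between groups.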
